A study of Homo sapiens with 10 samples.

Results

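Myricetin-treated THP-1 macrophages were compared with macrophages that received only the solvent DMSO. The comparison rests on 5 of the 10 arrays of the series, chosen by their treatment label. They are 2 myricetin arrays, from cells of passages 7 and 8, and 3 DMSO arrays, from cells of passages 6, 7 and 8. THP-1 cells come from a human acute monocytic leukaemia, and every culture was first turned into macrophages with PMA, a phorbol ester, for 24 h and then kept for 24 h with DMSO or the compound. The remaining arrays are 2 of cells given quercetin, at passages 7 and 8, and 3 of cells given punicalagin, at passages 6, 7 and 8, and they entered the fit to estimate the spread between arrays. The labels give no dose of myricetin or quercetin. All groups therefore share the leukaemic line, the PMA and the serum medium, and each culture is from a line and not from blood macrophages.

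Macrophages take up modified lipoproteins through scavenger receptors such as CD36 and MSR1, which is the first step in the formation of lipid-laden foam cells of the arterial wall. The nuclear receptors PPARγ (PPARG) and LXRα (NR1H3) sense fatty acids and oxysterols and raise the genes of lipid storage and cholesterol export, while NF-kB drives the genes of inflammation. Myricetin is a plant flavonol that differs from quercetin by an additional hydroxyl group on the B ring.

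RNA was read on Affymetrix Human Gene 1.0 ST arrays, and the values are log2 intensities, so a difference of 1 is a doubling of intensity. The probe table gave a symbol of their own to 18417 genes, each represented by its brightest transcript cluster. Array medians ran from 5.14 to 5.25 and lower quartiles from 3.55 to 3.72. The DMSO array of passage 6 stood apart from the other DMSO arrays. It differed from them with an SD over genes of 0.419 and 0.444, whereas the DMSO arrays of passages 7 and 8 differed by 0.274 and the myricetin arrays by 0.227. The counts and several lists and genes, among them the named genes whose call against DMSO was lost, are therefore also given for the 8 arrays of passages 7 and 8 alone. Of 15 macrophage markers 14 were measured, with a median level of 7.92 to 8.67 on the DMSO arrays and 8.58 to 8.74 on the myricetin arrays. The median level of the marker lists of undifferentiated monocytes, T and NK cells, B cells, fibroblasts, epithelium, endothelium and erythroid cells lay between 4.20 and 4.98 on these arrays, and none of their members passed the test. The summed endothelial level was 9.37 to 9.70 on the DMSO arrays and 9.98 to 10.2 on the myricetin arrays, and its part in the results was not tested. GAPDH changed by 0.25 (adjusted p = 0.905) and ACTB by 0.20 (adjusted p = 0.860), neither past the threshold. In bulk RNA, fewer cells of a type and less RNA per cell cannot be told apart.

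More genes were higher than lower with myricetin. In limma, 101 genes were higher and 23 were lower at an adjusted p under 0.05, which is 0.673% of the 18417 genes in either direction, 0.548% higher and 0.125% lower. The change was at least 2-fold in 73 of the higher and 8 of the lower genes. The median rise of the higher genes was 1.22 (2.33-fold) and the median fall of the lower genes was -0.91 (1.88-fold). All 124 genes had groups that did not overlap and changed in the same direction in the passage 7 and the passage 8 pair. They were called on these same arrays, so this agreement is no separate support. Over all genes, 4344 had groups that did not overlap, and the median change was -0.00438 with 49.1% of genes positive. With passages 7 and 8 only, 135 genes were higher and 87 lower (1.21% in either direction, 0.733% higher and 0.472% lower). Of the 124 genes, 114 were called there too, 95 of them higher and 19 lower. With the passage 7 myricetin array left out, 12 genes were called higher and 1 lower, and without the passage 8 myricetin array 16 and 1. Without the DMSO array of passage 7 the counts were 72 and 8, and without that of passage 6 they were 146 and 109.

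**Figure D1:**
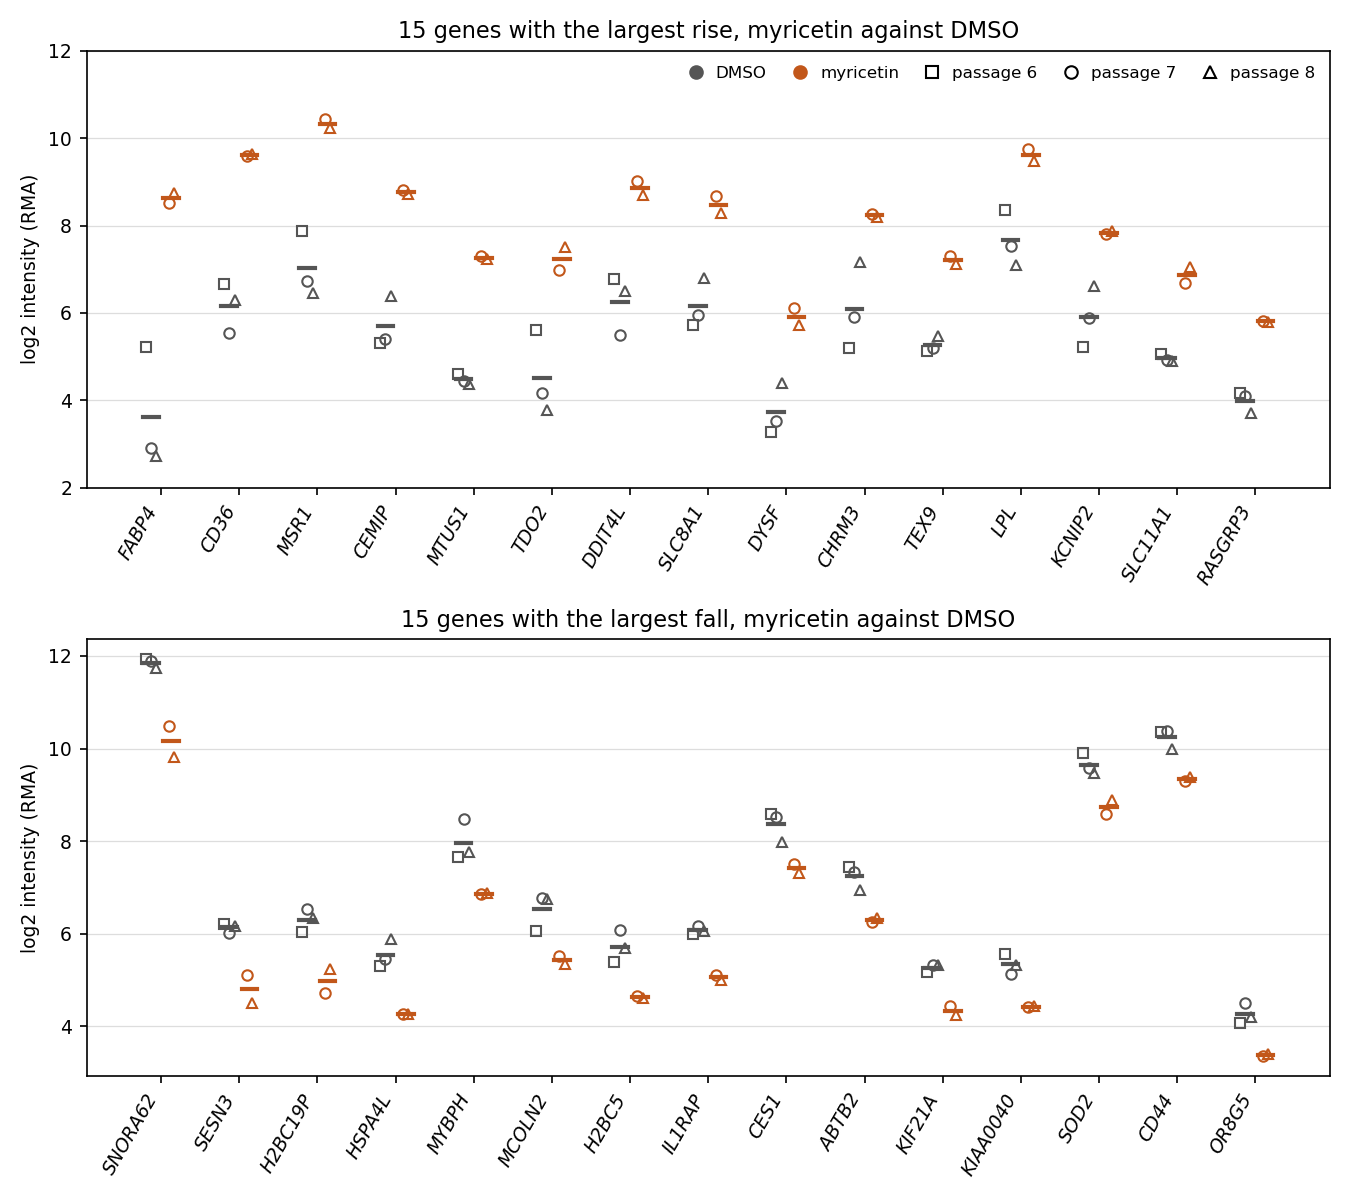
Log2 intensity (vertical axis) of the 15 genes with the largest rise (upper panel) and the 15 with the largest fall (lower panel) among those past the threshold. Each symbol is an array, with the shape giving the passage, grey for DMSO and orange for myricetin, and each bar is a group mean. Both myricetin arrays lie beyond all 3 DMSO arrays in every gene shown, and FABP4 shows the widest gap.

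The genes of lipid uptake led the rise. FABP4, an intracellular carrier of fatty acids, stood at 5.22, 2.90 and 2.73 on the DMSO arrays of passages 6, 7 and 8 and at 8.51 and 8.73 on the myricetin arrays of passages 7 and 8. The DMSO arrays of passages 7 and 8 lay below the lower quartile of their array, that of passage 6 well above them, and both myricetin arrays above all 3. The rise was 5.01 ± 0.54 (SE, 95% interval 3.83 to 6.18; adjusted p = 0.00163), and 5.81 with passages 7 and 8 only. No fold is given, since its DMSO level at passages 7 and 8 lay below the lower quartile of the array. CD36, a scavenger receptor and fatty acid transporter, read 6.66, 5.54 and 6.29 in DMSO and 9.60 and 9.63 in myricetin. Its myricetin arrays were nearly equal and far above every DMSO array, a rise of 3.45 ± 0.25 (10.9-fold, adjusted p = 0.000101). MSR1 encodes scavenger receptor A, a receptor of modified LDL, and read 7.88, 6.73 and 6.45 in DMSO and 10.4 and 10.2 in myricetin. The groups again did not overlap, and the rise was 3.31 ± 0.31 (9.93-fold, adjusted p = 0.000594). FABP4, CD36 and MSR1 stayed past the threshold whichever of the 5 arrays was left out, with adjusted p up to 0.0455, 0.00769 and 0.0277. A fit to the 5 arrays without the other compounds ended the call of FABP4 (adjusted p = 0.0581).

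LPL, the lipase that frees fatty acids from lipoproteins, stood at 8.36, 7.53 and 7.10 in DMSO and at 9.74 and 9.47 in myricetin. Its DMSO arrays fell over more than a unit, with passage 6 nearest to the myricetin arrays, and it rose by 1.94 ± 0.28 (3.85-fold, adjusted p = 0.0077). LRP1, an endocytic receptor of the LDL receptor family, rose by 0.96 ± 0.16 (adjusted p = 0.0174), from 6.08 to 6.22 in DMSO to 7.11 and 7.14 in myricetin. OLR1, a receptor of oxidised LDL, read 7.92, 6.42 and 6.48 in DMSO and 8.75 and 8.72 in myricetin, and its difference of 1.79 missed the threshold (adjusted p = 0.0715) with all DMSO arrays but passed it with passages 7 and 8 only (2.28; adjusted p = 0.00392). Of the 17 measured genes of scavenger receptors and lipid uptake, 5 were higher and none lower, and the median change was 0.63 with all 17 positive. With passages 7 and 8 only, 7 were higher, with a median of 0.80. In 12 of the 17 genes DMSO at passage 6 exceeded the mean of DMSO at passages 7 and 8, against 55.4% of all genes. The median difference was 0.50 over the 17 and 0.044 over all genes, and its part in the smaller median was not tested. CD163, the haemoglobin scavenger receptor, read 4.18, 4.41 and 3.997 in DMSO and 5.08 and 5.13 in myricetin (adjusted p = 0.0715), and CD68 and SCARB1 were not called. LPL lost its call without either myricetin array, and no such result is given for LRP1.

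The PPARγ and LXRα genes themselves were among the higher genes. PPARG stood at 7.16, 6.81 and 6.90 in DMSO and at 7.99 and 7.88 in myricetin, with groups well apart. It rose by 0.98 ± 0.14 (1.97-fold, adjusted p = 0.00715), and by 1.08 with passages 7 and 8 only (adjusted p = 0.00392). NR1H3 stood at 5.38, 5.43 and 5.67 in DMSO and at 6.57 and 6.68 in myricetin. Its DMSO arrays were close together and the rise was 1.13 ± 0.14 (2.19-fold, adjusted p = 0.00248). The PPAR list held targets and also the receptors PPARA, PPARD, PPARG and RXRA. Of its 14 measured genes, 5 were higher (FABP4, CD36, LPL, PLIN2 and PPARG) and none lower, with a median change of 0.28. PLIN2, which coats lipid droplets, read 8.34, 8.01 and 8.07 in DMSO and 9.37 and 9.60 in myricetin. It rose by 1.35 ± 0.15 (adjusted p = 0.00183) and was the only member called of 16 lipid droplet genes, whose median change was -0.06. Other PPAR targets did not pass: PDK4 differed by 0.37 (adjusted p = 0.554), CPT1A by 0.10 (adjusted p = 0.946) and ANGPTL4 by -0.36 (adjusted p = 0.602). The LXR list counts the receptor NR1H3 itself. Of its 12 measured genes, 2 were higher and none lower, with a median of 0.21 and 11 positive. Beside NR1H3 this was ABCG1, which exports cholesterol to HDL, at 5.71, 6.70 and 6.69 in DMSO and 7.58 and 7.76 in myricetin (1.31 ± 0.26; adjusted p = 0.0438). Here the DMSO array of passage 6 was the lowest, and the difference was 0.98 with passages 7 and 8 only (adjusted p = 0.0184). With passage as a block the call was lost (adjusted p = 0.0508). ABCA1 differed by 0.16 (adjusted p = 0.940) and APOE by 0.26 (adjusted p = 0.931). ABCG1 and NR1H3 lost their calls without either myricetin array, and PLIN2 without that of passage 8. No such result is given for PPARG.

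The 250 bases before the RefSeq start of PPARG, NR1H3 and NFKBIA are shown since these are the regulators that were called, PPARG and NR1H3 as higher and NFKBIA, the inhibitor of NF-kB, as lower. They come from RefSeq on GRCh38.p14, 5′ to 3′ on the strand of the gene, at chr3:12287118-12287367 (plus strand), chr11:47248050-47248299 (plus strand) and chr14:35404750-35404999 (minus strand). Capitals mark the nuclear receptor hexamer AGGTCA in the first pair of sequences and the κB consensus in NFKBIA, each searched on both strands.
PPARG: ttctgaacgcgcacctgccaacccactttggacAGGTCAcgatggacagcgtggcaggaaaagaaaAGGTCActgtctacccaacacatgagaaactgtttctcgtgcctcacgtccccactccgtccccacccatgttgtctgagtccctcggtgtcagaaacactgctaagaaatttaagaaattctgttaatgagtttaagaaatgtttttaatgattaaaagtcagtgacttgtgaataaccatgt
NR1H3: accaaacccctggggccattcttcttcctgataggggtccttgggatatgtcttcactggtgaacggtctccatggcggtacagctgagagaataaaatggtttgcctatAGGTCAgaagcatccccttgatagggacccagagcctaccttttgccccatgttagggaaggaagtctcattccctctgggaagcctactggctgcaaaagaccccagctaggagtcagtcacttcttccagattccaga
NFKBIA: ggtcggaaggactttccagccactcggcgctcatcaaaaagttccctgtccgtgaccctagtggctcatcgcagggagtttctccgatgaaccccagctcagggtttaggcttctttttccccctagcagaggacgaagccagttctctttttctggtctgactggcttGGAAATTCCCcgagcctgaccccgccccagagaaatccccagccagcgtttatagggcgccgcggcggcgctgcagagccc
The hexamer began 217 and 184 bases before the start of PPARG and 140 bases before that of NR1H3, and the κB match began 81 bases before that of NFKBIA. The hexamer was found in 9.69% of the 14239 tested genes with a promoter in the table, in 9 of the 77 higher genes (11.7%) and in 2 of the 17 lower genes (11.8%). The κB consensus was found in 11.1% of all promoters, in 6 of the 77 higher and in 2 of the 17 lower genes. The shares among the called genes were thus near those of all promoters, and a match is a run of letters, not a measured binding site. The table holds a single start per gene, and the arrays do not tell which start these cells used.

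Sterol synthesis genes leaned the same way without a call. Of 16 measured genes of cholesterol synthesis none was called, 15 were positive and the median was 0.27. With passages 7 and 8 only the median was again 0.27, with 13 positive. It was 0.34 in the passage 7 pair and 0.12 in the passage 8 pair. DHCR7, which makes cholesterol from its last precursor, read 6.39, 6.20 and 6.91 in DMSO and 7.39 and 7.36 in myricetin (adjusted p = 0.423), and MSMO1, a demethylating oxidase of the same route, differed by 0.72 (adjusted p = 0.588). STARD4, a carrier of cholesterol, differed by 0.75 (adjusted p = 0.0537). Of 14 measured genes of fatty acid synthesis and desaturation none was called, 7 were positive and the median was 0.05. The fatty acid desaturase FADS2 of that list read 5.11, 5.25 and 6.48 in DMSO and 7.18 and 6.97 in myricetin (1.46; adjusted p = 0.0732), SCD differed by 0.89 (adjusted p = 0.458), and ME1, at the other end of the list, by -0.83 (adjusted p = 0.096).

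Other genes with a large rise belonged to several families. CEMIP, which takes part in the breakdown of hyaluronan, read 5.31, 5.41 and 6.39 in DMSO and 8.82 and 8.73 in myricetin. It rose by 3.07 ± 0.26 (8.42-fold, adjusted p = 0.000395), with no overlap, although the DMSO array of passage 8 was a unit above the others. MTUS1, a microtubule-associated protein, read 4.60, 4.45 and 4.38 in DMSO and 7.31 and 7.22 in myricetin. The arrays of each group lay close together, and it rose by 2.79 ± 0.20 (6.91-fold, adjusted p = 0.000101). TDO2, the enzyme that opens the ring of tryptophan, read 5.62, 4.17 and 3.77 in DMSO and 6.98 and 7.51 in myricetin, and rose by 2.73 ± 0.46 (6.61-fold, adjusted p = 0.0181). It was the only member called of 10 measured enzymes of tryptophan and kynurenine metabolism. SLC11A1, a metal transporter of the phagosome, read 5.06, 4.92 and 4.91 in DMSO and 6.69 and 7.05 in myricetin and rose by 1.91 ± 0.17 (adjusted p = 0.000567). It was the only one called of 16 iron and haem genes. CEMIP, MTUS1 and SLC11A1 held their calls whichever array was left out (adjusted p up to 0.0192, 0.00769 and 0.0277). TDO2 lost its call without the DMSO array of passage 7 or without either myricetin array, with adjusted p up to 0.311.

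DDIT4L, an inhibitor of mTOR signalling, rose by 2.60 ± 0.30 (adjusted p = 0.00184), and SLC8A1, a sodium-calcium exchanger, by 2.31 ± 0.29 (adjusted p = 0.00329). DYSF, a protein of membrane repair, read 3.29, 3.53 and 4.40 in DMSO and 6.10 and 5.73 in myricetin. It rose by 2.18 ± 0.35 (adjusted p = 0.0144), but its DMSO arrays of passages 6 and 7 lay below the lower quartile. CHRM3, a muscarinic acetylcholine receptor, rose by 2.14 ± 0.42 (adjusted p = 0.040). The DMSO arrays of CHRM3 ran from 5.19 to 7.16, the myricetin arrays read 8.27 and 8.19. TEX9 rose by 1.94 (adjusted p = 0.00182) and KCNIP2, which binds voltage-gated potassium channels, by 1.93 (adjusted p = 0.0115). Both chains of the calcium-activated potassium channel were among the higher genes, KCNMA1 by 1.15 (adjusted p = 0.00206) and KCNMB1 by 1.22 (adjusted p = 0.0112). KCNMA1 read 4.58, 4.52 and 4.52 in DMSO and 5.71 and 5.69 in myricetin, and KCNMB1 read 6.78, 6.28 and 6.29 in DMSO and 7.67 and 7.68 in myricetin. For both genes the myricetin arrays agreed closely and lay above the DMSO range. RASGRP3, an exchange factor of Ras that binds phorbol esters, rose by 1.82 ± 0.21 (adjusted p = 0.00197), and the protein kinase C isoform PRKCH by 0.98 ± 0.14 (adjusted p = 0.0077). They were the 2 called of 12 measured protein kinase C and RasGRP genes, whose median change was -0.04. DYSF, CHRM3, KCNIP2, RASGRP3 and PRKCH lost their calls without either myricetin array (adjusted p up to 0.286, 0.405, 0.187, 0.0577 and 0.179), and DDIT4L, SLC8A1 and TEX9 without that of passage 7 (up to 0.0609, 0.110 and 0.0565). DYSF and CHRM3 also lost theirs without the DMSO array of passage 7. For KCNMA1 and KCNMB1 no result with an array left out is given.

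Matrix and adhesion genes were higher in part. Of 32 measured extracellular matrix genes, 5 were higher and none lower, with a median of 0.09 and 23 positive. SPP1 (osteopontin) read 11.2, 10.6 and 10.5 in DMSO and 12.5 on both myricetin arrays and rose by 1.72 ± 0.19 (3.30-fold, adjusted p = 0.00182). FN1 (fibronectin) read 4.74, 4.40 and 4.31 in DMSO and 6.07 and 6.09 in myricetin and rose by 1.60 ± 0.21 (adjusted p = 0.00546). In both genes the DMSO array of passage 6 was the highest of its group and still below myricetin. The heparan sulfate proteoglycans GPC4 and SDC2 rose by 1.42 ± 0.20 (adjusted p = 0.00696) and 1.16 ± 0.15 (adjusted p = 0.00329), and the collagen chain COL6A1 by 0.85 (adjusted p = 0.0148). The integrin chain ITGA3 rose by 1.25 ± 0.20 (adjusted p = 0.0121) and the hyaluronan receptor CD44 fell by 0.89 ± 0.15 (adjusted p = 0.0161), the 2 called of 24 integrins and adhesion molecules. CD44 read 10.4, 10.4 and 9.99 in DMSO and 9.31 and 9.39 in myricetin. The protease inhibitors SERPINE2 and SERPINI1 rose by 1.81 ± 0.28 (adjusted p = 0.0116) and 1.68 ± 0.21 (adjusted p = 0.00329), out of 16 genes of the serpins and plasminogen system. Among 22 matrix metalloproteinases and TIMPs only the collagenase MMP8 was called, at 3.26, 2.75 and 2.47 in DMSO and 4.50 and 4.41 in myricetin (1.63 ± 0.23; adjusted p = 0.00755), and all of its DMSO arrays lay below the lower quartile. MMP1 read 8.09, 6.82 and 5.89 in DMSO and 9.07 and 8.68 in myricetin, with an adjusted p of 0.0855 that was 0.00253 with passages 7 and 8 only. TGFB2 and TGFB3, ligands of the TGF-beta family, rose by 1.04 ± 0.20 (adjusted p = 0.0379) and 1.08 ± 0.16 (adjusted p = 0.0077), while the median of the 24 measured genes of that list was -0.14. SPP1 and SERPINI1 lost their calls without the passage 7 myricetin array (adjusted p up to 0.0554 and 0.110) and most others without either myricetin array, with adjusted p up to 0.110 for FN1 and SDC2, 0.161 for GPC4, 0.220 for ITGA3 and SERPINE2, 0.15 for MMP8, 0.286 for CD44, 0.520 for TGFB2 and 0.160 for TGFB3. CD44 and TGFB2 also lost theirs without the DMSO array of passage 7, and TGFB2 without that of passage 8 and with passage as a block (adjusted p = 0.0833). For COL6A1 no result with an array left out is given.

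Lysosomal and innate sensing genes gave single calls. CTSC, a cathepsin that activates serine proteases, read 8.78, 8.62 and 8.93 in DMSO and 10.1 and 10.0 in myricetin, and rose by 1.32 ± 0.16 (adjusted p = 0.00225). It was the only one called of 33 lysosomal genes, whose median was 0.05. The proton pump subunit ATP6V0D2 rose by 1.22 ± 0.21 (adjusted p = 0.0225), 1 of 16 V-ATPase genes. CD180, a receptor of the Toll-like family, read 6.88, 5.94 and 6.76 in DMSO and 8.14 and 8.15 in myricetin and rose by 1.62 ± 0.27 (adjusted p = 0.0176), the only call among 17 Toll-like receptors and co-receptors. The inflammasome sensor NLRC4 rose by 1.16 ± 0.16 (adjusted p = 0.00546) and IL1RAP, the co-receptor of interleukin-1, fell by 1.01 ± 0.15 (adjusted p = 0.00797). IL1RAP read 6.00, 6.16 and 6.05 in DMSO and 5.12 and 5.003 in myricetin, a gap wider than the spread in either group. All 5 genes lost their calls without either myricetin array (adjusted p up to 0.0741 for CTSC, 0.311 for ATP6V0D2, 0.259 for CD180, 0.110 for NLRC4 and 0.160 for IL1RAP), and ATP6V0D2 also without the DMSO array of passage 7.

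Genes of NF-kB signalling were mostly lower, and 2 of 31 passed. NFKBIA, which holds NF-kB in the cytoplasm and is itself an NF-kB target, read 10.6, 10.3 and 10.0 in DMSO and 9.43 and 9.47 in myricetin. It fell by 0.85 ± 0.17 (1.81-fold, adjusted p = 0.0407), and by 0.72 with passages 7 and 8 only (adjusted p = 0.043). SOD2, the mitochondrial superoxide dismutase, read 9.90, 9.59 and 9.48 in DMSO and 8.59 and 8.89 in myricetin. It fell by 0.91 ± 0.18 (adjusted p = 0.0378), a call that was lost with passages 7 and 8 only (adjusted p = 0.0672). CXCL8, the neutrophil chemokine, read 11.2, 10.8 and 10.3 in DMSO and 9.44 and 9.95 in myricetin (-1.07; adjusted p = 0.0651). Of the 31 genes 3 were positive and the median was -0.29, or -0.19 with 9 positive for passages 7 and 8 only. In 25 of the 31 genes DMSO at passage 6 exceeded the mean of DMSO at passages 7 and 8, against 55.4% of all genes. The median difference was 0.41 over the 31 and 0.044 over all genes. IL1A read 7.15 on the DMSO array of passage 6, 4.85 and 3.85 on the other DMSO arrays and 3.72 and 3.92 in myricetin. TNF read 10.1, 8.29 and 8.22 in DMSO and 8.27 and 8.98 in myricetin. The part of the passage 6 array in the list was not tested. The median was -0.38 in the passage 7 pair and -0.06 in the passage 8 pair. The subunits NFKB1 and REL differed by -0.56 (adjusted p = 0.217) and -0.62 (adjusted p = 0.154), and TRAF1 by -0.78 (adjusted p = 0.119). NFKBIA and SOD2 lost their calls without the DMSO array of passage 7 or without either myricetin array, with adjusted p up to 0.412 and 0.506. Neither call held with passage as a block (adjusted p = 0.0824 for NFKBIA and 0.0787 for SOD2).

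**Figure D2:**
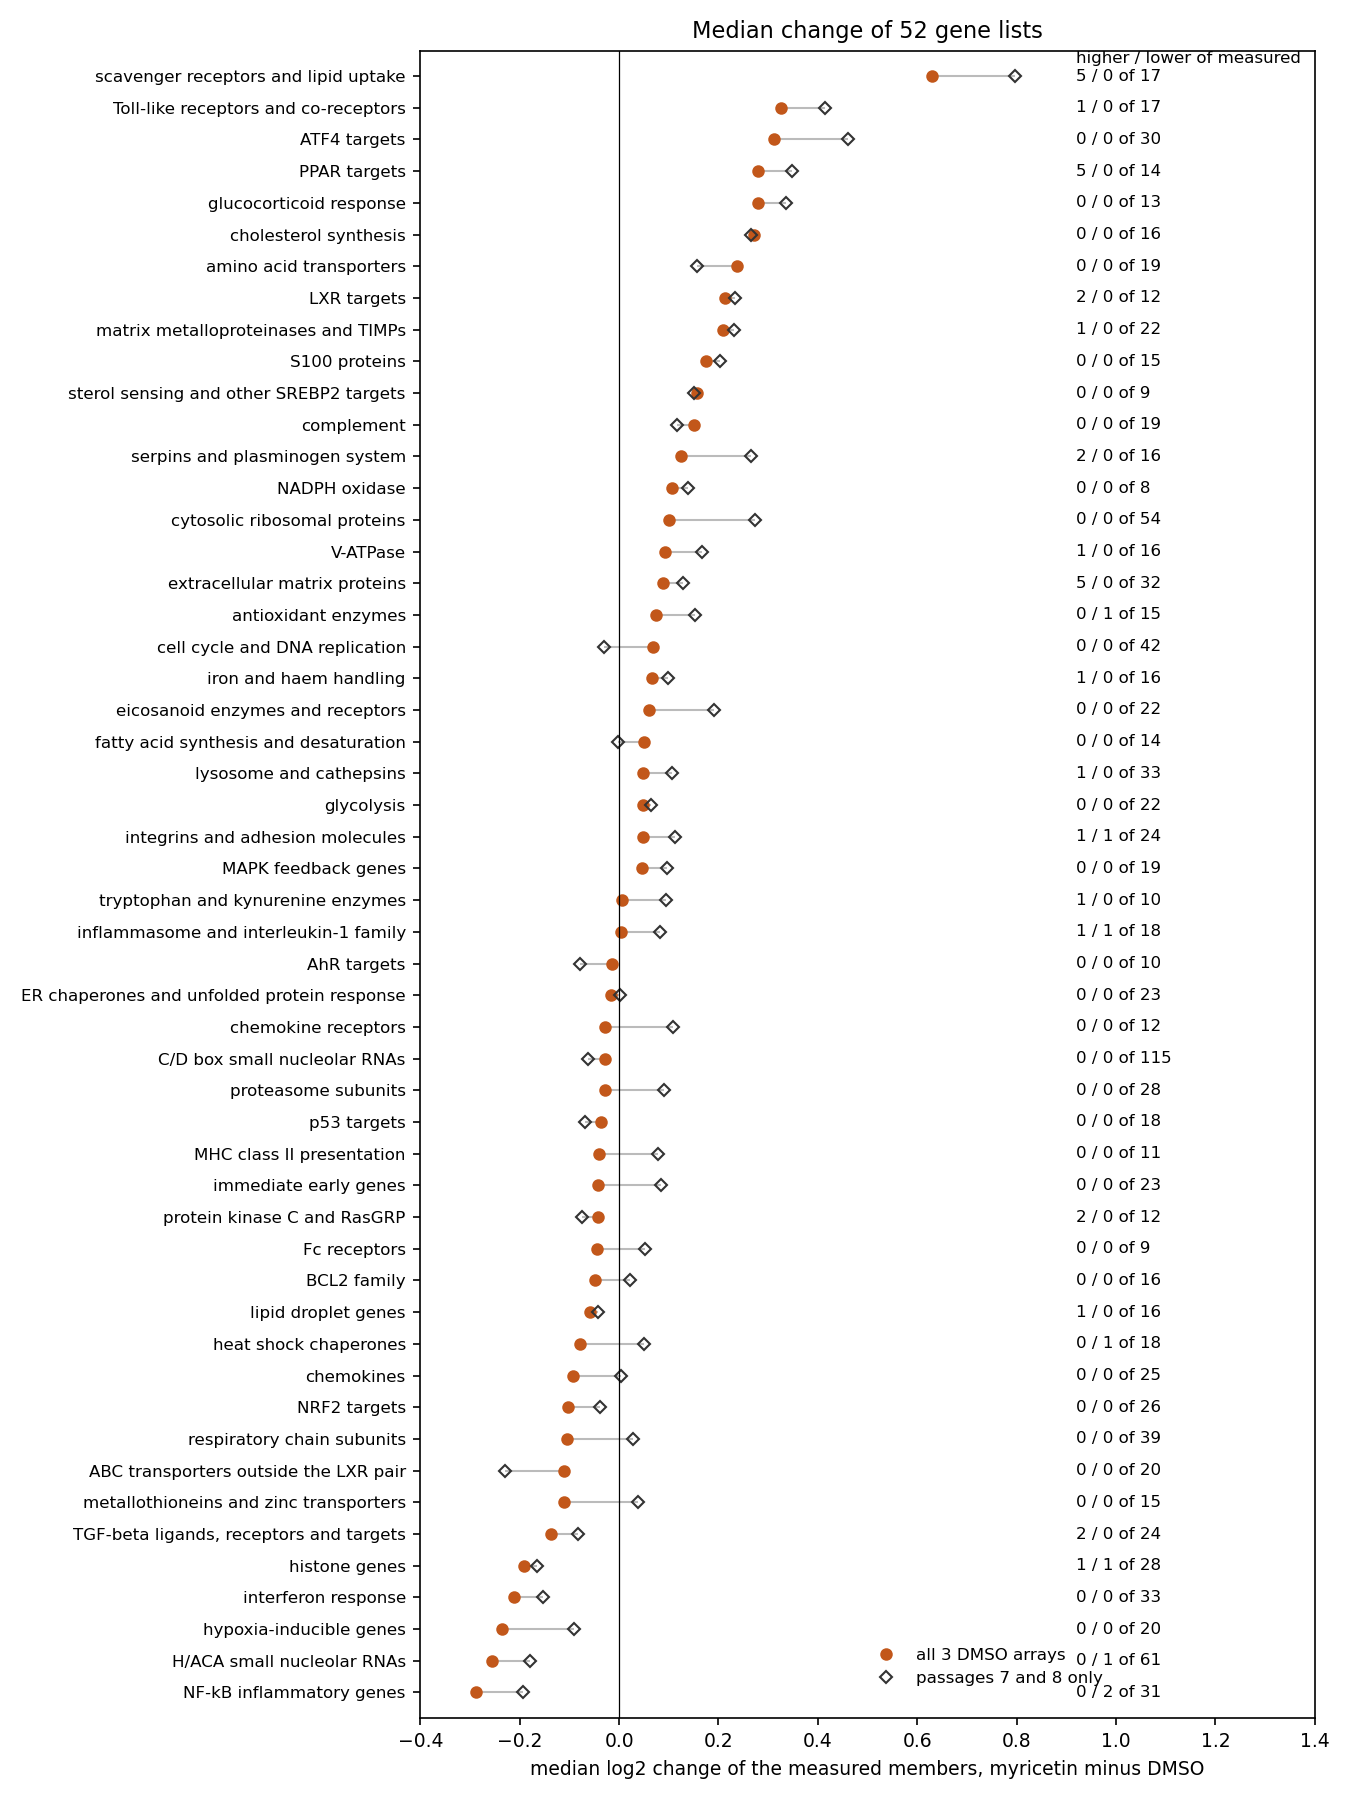
Median log2 change (horizontal axis) of the measured members of 52 gene lists, filled circles with all 3 DMSO arrays and open diamonds with passages 7 and 8 only. The numbers at the right give the members called higher and lower of those measured. Scavenger receptors and lipid uptake have the highest median (0.63 and 0.80), and NF-kB inflammatory genes the lowest with all DMSO arrays (-0.29).

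The largest falls outside these lists were in single genes of several kinds. SNORA62, a small RNA that guides the modification of ribosomal RNA, read 11.9, 11.9 and 11.7 in DMSO and 10.5 and 9.83 in myricetin, and fell by 1.70 ± 0.31 (3.24-fold, adjusted p = 0.0305). It was the only call among 61 H/ACA RNAs, whose median was -0.26, and was not called with passages 7 and 8 only (adjusted p = 0.0694). SESN3, a stress-inducible inhibitor of mTOR signalling, read 6.21, 6.02 and 6.17 in DMSO and 5.10 and 4.51 in myricetin and fell by 1.33 ± 0.18 (adjusted p = 0.00546). The histone H2B genes H2BC5 and H2BC19P fell by 1.08 and 1.32 (adjusted p = 0.0371 and 0.00768), and they resemble other H2B copies, so their probes may read more than 1 of them. HSPA4L, a heat shock protein, fell by 1.27 (adjusted p = 0.0313), MYBPH, a myosin-binding protein, by 1.10 (adjusted p = 0.0487), and MCOLN2, a lysosomal cation channel, by 1.10 (adjusted p = 0.044). CES1, a carboxylesterase that also splits cholesteryl esters, read 8.59, 8.51 and 7.98 in DMSO and 7.51 and 7.30 in myricetin and fell by 0.95 ± 0.19 (adjusted p = 0.0446), a call lost with passages 7 and 8 only (adjusted p = 0.0845). ABTB2, KIF21A and KIAA0040 fell by 0.94, 0.93 and 0.91. OR8G5, an olfactory receptor gene, fell by 0.89, and both of its myricetin arrays lay below the lower quartile. Each of these genes lost its call without at least 1 of the myricetin arrays, with adjusted p up to 0.105 for SESN3, 0.187 for H2BC19P and between 0.215 and 0.520 for the others. Without the DMSO array of passage 7, SNORA62, HSPA4L, MYBPH, MCOLN2, H2BC5, CES1, ABTB2 and OR8G5 also lost theirs, as did HSPA4L, MCOLN2 and H2BC5 without that of passage 8 and CES1 without that of passage 6. With passage as a block the calls of SNORA62, MYBPH, CES1, ABTB2, KIAA0040 and OR8G5 were lost, with adjusted p of 0.0699, 0.0736, 0.0584, 0.056, 0.056 and 0.0508. Histone genes did not all fall. Of 28 measured members of the histone list 1 was higher and 1, H2BC5, lower, with a median of -0.19. The higher gene was H2AZ1 (adjusted p = 0.0225), which rose by 1.52 in the passage 7 pair and 0.87 in the passage 8 pair. Its call was lost without the DMSO array of passage 7, without either myricetin array and with passage as a block.

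**Figure D3:**
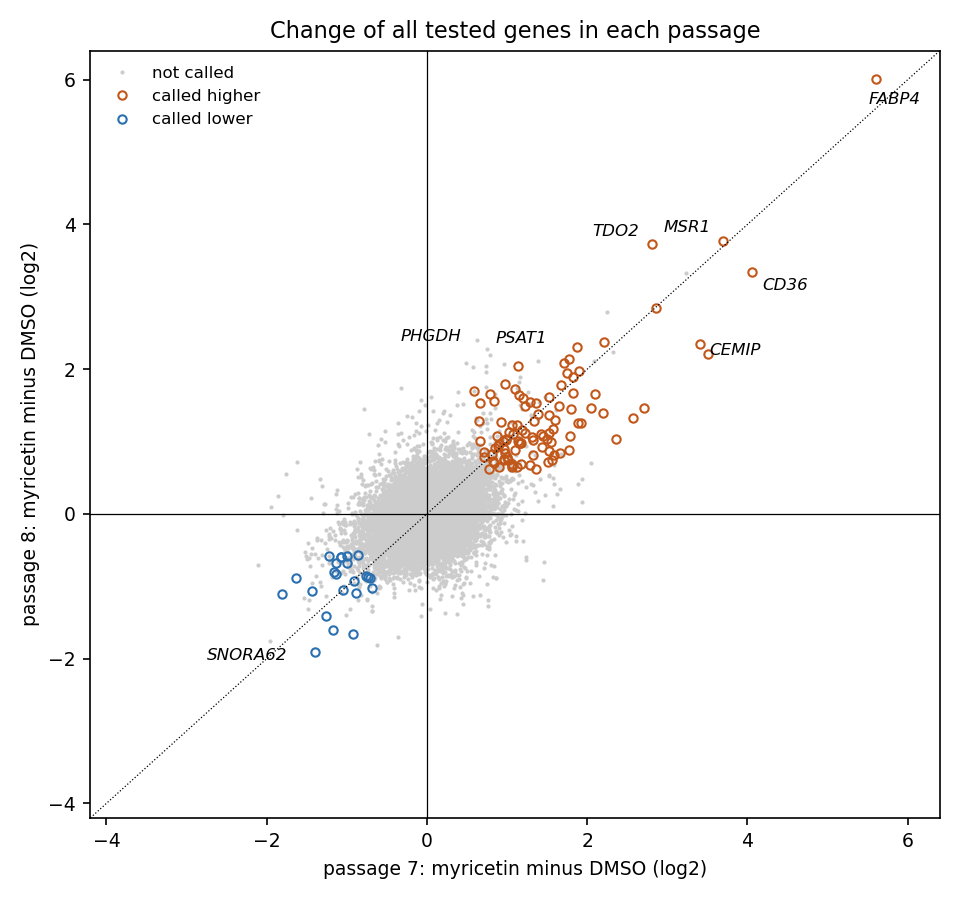
Change of each of 18417 genes, myricetin minus DMSO in log2, in the passage 7 pair (horizontal axis) against the passage 8 pair (vertical axis), with called genes as coloured circles and the dotted line marking equal change. All called genes lie in the quadrants where both pairs changed the same way, while PHGDH and PSAT1 lie off the line.

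The medians of some families differed between the passage 7 and the passage 8 pair, a difference that was not tested. The ATF4 list held ATF4 itself and its targets, which respond to amino acid shortage. Of its 30 measured genes none was called, and the median was 0.31 with 24 positive. In the passage 7 pair the median was 0.13 and in the passage 8 pair 0.78. PHGDH and PSAT1, the first enzymes of serine synthesis, were higher on the passage 8 myricetin array than on the other 4 myricetin and DMSO arrays. PHGDH read 4.91, 5.29 and 5.45 in DMSO and 5.91 and 7.86 in myricetin, and PSAT1 read 5.31, 5.37 and 5.58 in DMSO and 6.12 and 7.86 in myricetin. The myricetin arrays of each gene lay further apart than their distance from DMSO at passage 7, and neither passed (adjusted p = 0.494 and 0.519). The amino acid transporter SLC7A5 read 7.71, 7.32 and 7.08 in DMSO and 8.06 and 9.13 in myricetin (adjusted p = 0.450). Of 42 cell cycle and DNA replication genes none was called, 37 were positive in the passage 7 pair and 9 in the passage 8 pair. Their median level was 4.80, 4.71 and 5.51 on the DMSO arrays of passages 6, 7 and 8 and 5.12 and 4.75 on the myricetin arrays of passages 7 and 8. The highest level was thus on the DMSO array of passage 8. Of 54 ribosomal protein genes none was called. In 51 of them DMSO at passage 6 was higher than the mean of the other DMSO arrays, with a median difference of 0.48 over all 54. Over all tested genes the share was 55.4% and the median difference 0.044.

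**Figure D4:**
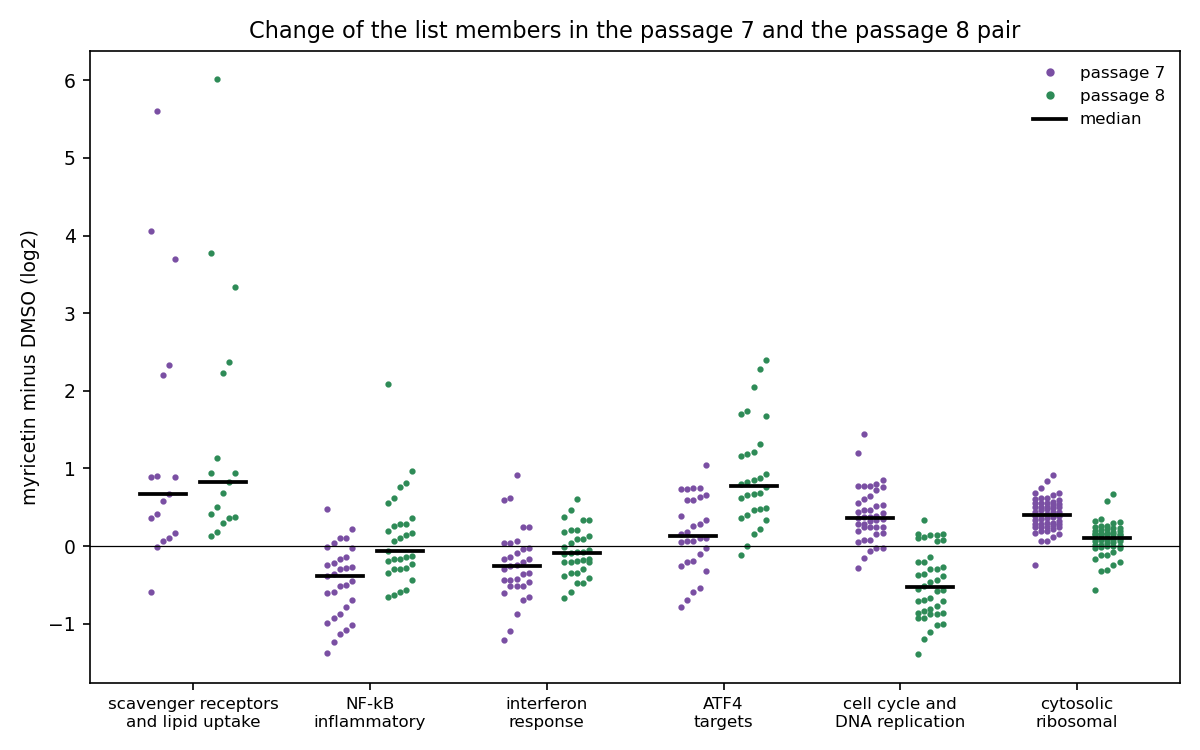
Change of each list member, myricetin minus DMSO in log2 (vertical axis), in the passage 7 pair (violet) and the passage 8 pair (green), with black bars for the medians. The members of scavenger receptors and lipid uptake lie above 0 in both passages but for 2 in passage 7, ATF4 targets lie higher in passage 8, and the medians of cell cycle genes lie on opposite sides of 0.

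The stress, hormone and metal response lists gave no or few calls. None of 13 measured glucocorticoid response genes was called, with a median of 0.28 and 9 positive. With passages 7 and 8 only the median was 0.34 and 1 gene was higher, DUSP1 (adjusted p = 0.0332). The NRF2 list held targets, which mark oxidative and electrophilic stress, and also the regulators NFE2L2 and KEAP1. None of its 26 measured genes was called (median -0.10, 9 positive). ME1 read 7.71, 7.79 and 7.62 in DMSO and 6.83 and 6.93 in myricetin (adjusted p = 0.096). None of 15 metallothioneins and zinc transporters was called (median -0.11, 6 positive). With passages 7 and 8 only the median was 0.04 with 8 positive. MT2A read 10.1, 9.47 and 9.24 in DMSO and 8.97 and 9.05 in myricetin (adjusted p = 0.555). Its other clusters differed by -0.56 and -1.17, neither past the threshold. The median of 33 interferon response genes was -0.21 with 5 positive and no call, or -0.15 with 9 positive for passages 7 and 8 only. MX1 read 6.02, 5.94 and 5.55 in DMSO and 5.07 and 5.34 in myricetin (adjusted p = 0.215). None of 10 measured genes of the aryl hydrocarbon receptor list, which counts AHR and ARNT too, was called. The receptor's target CYP1B1 read 9.01, 8.77 and 8.47 in DMSO and 8.30 and 8.39 in myricetin (adjusted p = 0.530). The immediate early gene KLF4 read 6.97, 6.65 and 7.31 in DMSO and 8.23 and 7.72 in myricetin (1.00; adjusted p = 0.0523). A p that misses the threshold does not show that these genes were equal.

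Myricetin was compared with quercetin, its nearest relative in the series, over 1 pair of compounds at the same passages. The doses are not in the labels, so the test compares these cultures and not matched doses. In the same fit 128 genes were higher with myricetin and 282 lower (2.23% of the genes in either direction, 0.695% higher and 1.53% lower). Leaving out 1 of these 4 arrays left 7 to 13 genes higher and 47 to 73 lower. Of the 17 scavenger receptor and lipid uptake genes, 3 were lower with myricetin than with quercetin (CD163, CD68 and SCARB2) and none higher, while FABP4, CD36 and MSR1 did not pass in the fit to 10 arrays. FABP4 read 8.51 and 8.73 with myricetin and 10.5 and 10.6 with quercetin (-1.95; adjusted p = 0.131), and this difference passed with passages 7 and 8 only (adjusted p = 0.000278). CD36 read 9.60 and 9.63 against 10.1 and 10.2 (-0.53; adjusted p = 0.465). For MSR1 the difference was -0.24 (adjusted p = 0.866), for PLIN2 -0.04 (adjusted p = 0.965; 95% interval -0.40 to 0.33) and for PPARG -0.05 (adjusted p = 0.942). NR1H3 did differ, at 6.57 and 6.68 with myricetin and 8.44 and 8.48 with quercetin, with 5.38 to 5.67 in DMSO, so that myricetin lay between them (-1.84; adjusted p = 0.000171).

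The 5 genes furthest below quercetin were MMP10, STC1, MMP8, CD84 and TGFB3. MMP10, a stromelysin, read 4.67 and 4.53 with myricetin and 8.39 and 8.47 with quercetin, against 5.44, 4.95 and 4.43 in DMSO (-3.83 ± 0.25; 14.2-fold, adjusted p = 2.64e-05). The myricetin arrays of MMP10 thus lay within the DMSO range. MMP8 was lower by 3.36 ± 0.25 (adjusted p = 0.000102), at 4.50 and 4.41 against 7.83 and 7.80, and STC1, a secreted glycoprotein, by 3.46 ± 0.66 (adjusted p = 0.0188). CD84, a receptor of the SLAM family, read 4.69 and 4.95 with myricetin and 7.87 and 8.09 with quercetin, and TGFB3 read 5.62 and 5.84 against 8.86 and 8.73. CD84 differed by -3.16 (adjusted p = 0.00183) and TGFB3 by -3.07 (adjusted p = 9.42e-06). Of 22 matrix metalloproteinases and TIMPs 6 were lower with myricetin than with quercetin and none higher, with a median of -0.64, and of 33 interferon genes 8 were lower, with a median of -0.51. MX1 read 5.07 and 5.34 with myricetin and 6.69 and 6.92 with quercetin (-1.60; adjusted p = 0.00162). Among chemokines, 5 of 25 were lower, and CXCL8, counted with NF-kB genes too, read 9.44 and 9.95 against 11.1 and 11.1 (-1.40; adjusted p = 0.0142).

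Fewer genes were higher with myricetin than with quercetin. CHRM3 read 8.27 and 8.19 with myricetin and 5.88 and 6.15 with quercetin (2.21 ± 0.46; adjusted p = 0.0284). ANTXR1, a receptor of the cell surface that binds collagen, was higher by 2.20 ± 0.30 (adjusted p = 0.00299), at 8.03 and 8.05 against 5.69 and 5.98. S100A4, a calcium-binding protein, read 8.96 and 8.22 with myricetin, 8.37, 8.24 and 8.54 in DMSO and 6.25 and 6.53 with quercetin, so that the myricetin and DMSO arrays overlapped. The difference from quercetin was 2.20 ± 0.23 (adjusted p = 0.000527). The cell surface receptor P2RY8 was higher by 2.19 ± 0.24 (adjusted p = 0.00071). REXO1L1P had the largest difference, 3.10 (adjusted p = 0.0401), but belongs to a family of near-identical copies, so its probes may read several of them, and it read 7.91 on the DMSO array of passage 6 and 5.53 and 5.43 on the others. CYP1B1 read 8.30 and 8.39 with myricetin and 6.27 and 6.33 with quercetin (2.04 ± 0.19; adjusted p = 0.000318), and TIPARP, another target of the aryl hydrocarbon receptor, differed by 1.54 (adjusted p = 0.00316). These were the 2 called of the 10 measured genes of the aryl hydrocarbon receptor list. For both, the myricetin arrays lay nearer to DMSO than the quercetin arrays did.

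**Figure D5:**
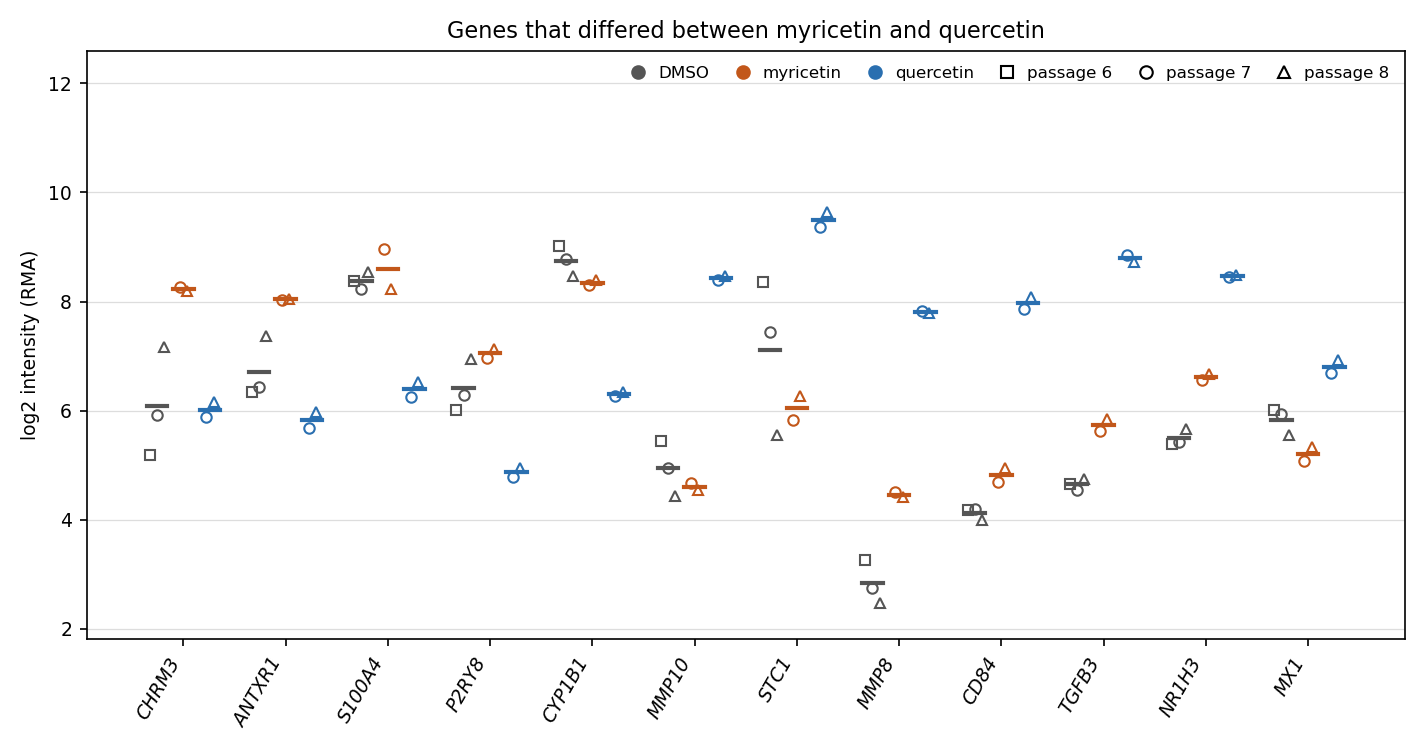
Log2 intensity (vertical axis) of 12 genes on the DMSO (grey), myricetin (orange) and quercetin (blue) arrays, with the passage given by the shape and bars for group means. The quercetin arrays of all 12 genes lie apart from the myricetin arrays. The myricetin mean lies nearer to DMSO than to quercetin for genes that include CYP1B1, MMP10, STC1, S100A4, MMP8, TGFB3, NR1H3, MX1 and P2RY8.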

How the data were processed

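RNA of PMA-treated THP-1 cells was hybridised to Affymetrix Human Gene 1.0 ST arrays. The authors summarised and normalised the probes by RMA, which gives values on the log2 scale, and their processing notes name Affymetrix Expression Console and Partek 7.0. Precision is limited by the number of arrays, 2 against 3. Adjusted p-values set each difference against the spread between cultures of different passages of the same line, pooled over the 4 groups.

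Of 33297 transcript clusters, 19460 had a single symbol in the probe table, 1754 several and 12083 none. Each of 18417 genes was represented by its cluster with the highest mean over the 10 arrays. A model with 4 groups was fitted to all 10 arrays with limma 3.58.1 in R 4.3.3 (lmFit and eBayes), and p-values were adjusted by Benjamini-Hochberg over all genes, with a threshold of 0.05. The fit was tested on simulated data. Named genes were the 15 largest rises and falls past the threshold that went the same way in both passage pairs, up to 4 called members of each list or up to 2 members where none was called, the 5 largest differences from quercetin each way, and GAPDH and ACTB. PPARG, LRP1, OLR1, CD68, SCARB1, SCARB2, PDK4, CPT1A, ANGPTL4, ABCA1, APOE, KCNMA1, KCNMB1, COL6A1, MMP1, IL1A, TNF, NFKB1, REL, TRAF1 and TIPARP were named after their values were seen. The comparison and the gene lists were chosen with earlier results of these data known. The list of punicalagin genes was chosen by the study on arrays that share the DMSO controls, and its 30 measured genes, of which 14 were higher and 3 lower, support nothing here. Alternatives were other passages, a passage block, fewer arrays, other variance estimates, array weights, a filter on dim rows, centring, other rows and a t-test on the 5 arrays.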

Additional observations from a re-analysis of the deposited data

Results flagged for a closer look

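Clusters to which the probe table gave no symbol or several were outside the comparisons, and 9 of them passed the threshold when all clusters were tested together, all of them higher with myricetin. A pair of clusters shared by FABP5, another fatty acid carrier, and its pseudogene FABP5P3 was higher by 1.44 (adjusted p = 0.0263), and a cluster shared by the lectin receptors CD209 and CLEC4M by 1.79 (adjusted p = 0.0268). The others had no symbol, and their changes were 1.01, 1.33, 1.44, 1.69, 1.82 and 2.09.

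Many lists had medians of opposite sign in the passage 7 and the passage 8 pair, and in a pair of them both medians were at least 0.1 from 0. The median change of the fatty acid synthesis and desaturation genes was 0.123 in passage 7 and -0.105 in passage 8, and that of the cell cycle and DNA replication genes was 0.366 and -0.532. These differences were not tested, since each passage holds 1 array of each group.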

How the results depend on the processing

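Genes that were not called, such as S100A4, could change sign when an array was left out. Such changes were not counted as reversals. None of the 1550 values of the named genes under the alternatives was a reversal of a called gene. Of them 1343 kept their side of the threshold, 164 lost a call and 43 gained one. Of the 121 genes named by rule, 50 were called against DMSO, and only these could lose a call. The values that kept their side thus include those of genes that stayed uncalled. The counts of genes moved more. For myricetin against DMSO (101 higher, 23 lower), passages 7 and 8 only gave 87 lower, the 5 arrays of the 2 groups alone 23 higher and 1 lower, array weights 272 and 155, all clusters together 47 higher and 3 lower, clusters with a symbol 15 lower, and rows at or above the median level 14 lower. Leaving out 1 array gave 12 to 146 higher and 1 to 109 lower. An equal-variance t-test on the 5 arrays gave 0 higher and 0 lower after Benjamini-Hochberg (smallest adjusted p = 0.268). It gave 1191 genes at an unadjusted p under 0.05, and 84 higher and 11 lower by unadjusted p and over 2-fold. The paper names an analysis of variance over all data, not this t-test. With passage as a replicate block, limma called 98 higher and 27 lower on all 10 arrays, keeping 91 of the 124 genes, and 114 higher and 53 lower for passages 7 and 8, keeping 94. The values gave no sign of pairing by passage: the changes from passage 7 to 8 in DMSO and myricetin correlated at -0.0993 across genes, which are not independent. For myricetin against quercetin (128 higher, 282 lower), passages 7 and 8 only gave 271 and 481, the block there 200 higher, array weights 895 and 1193, all clusters 36 and 119, and leaving out 1 array 7 to 13 higher and 47 to 73 lower. The causes were not tested.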
